A study of Mus musculus with 27 samples.

Results

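Lungs sensitized with house dust mite extract were compared with unsensitized lungs across all measured genes, taken by cell class, pathway and gene family. The comparison used 15 of the 27 libraries of the study: the 10 labelled CDG_HDM (sensitized 1 to 10 in the value tables) and the 5 labelled Saline (unsensitized 1 to 5). The tissue was the left lobe of the lung in all 15, from mice of the BALB/c AnNHsd strain at an age of 87 days. The labels number the libraries but do not say that each is a separate mouse, so p-values measure the spread between these samples. CDG_HDM mice were sensitized with house dust mite extract plus cyclic di-GMP, a bacterial second messenger used as a mucosal adjuvant, in a 35 day protocol, and Saline mice were not. No group received the extract or the adjuvant alone, so the effects of the 2 agents cannot be told apart. The series is titled as a model of severe asthma. Total RNA was depleted of ribosomal RNA and sequenced with strand information, and the deposited values are TPM, a length-corrected share of the transcripts of a library, for linear RNA and for circular RNA per gene symbol. The remaining 12 libraries came from mice given dexamethasone or an antisense oligonucleotide against miR-155 and served here to estimate the spread.

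In allergic airway disease, dendritic cells carry inhaled antigen to T cells on class II molecules, and helper T cells then direct B cells, granulocytes and macrophages. Cyclic di-GMP binds the adaptor STING, which can start interferon and NF-kappaB responses. Chronic exposure can also seed follicles of B and T cells in the lung itself, around stromal cells that make the chemokines CXCL13, CCL19 and CCL21. The resident tissue into which these cells move is built of capillary endothelium, alveolar and airway epithelium, fibroblasts, pericytes and smooth muscle, each with its own marker genes. In whole tissue, fewer cells of a type and less RNA per cell cannot be told apart, and because TPM is a share, a gene can also be lower because others are higher.

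Of 17437 linear genes tested, 32.2% were called: 1631 (9.35%) were higher and 3976 (22.8%) lower in CDG_HDM at a limma adjusted p under 0.05. The direction of this balance depended on scaling. Linear TPM summed to 834297 ± 19518 in Saline (SD, n = 5) and 745997 ± 48363 in CDG_HDM (n = 10; exact permutation test, two-sided p = 0.000666, adjusted over 3 totals 0.002). The TPM outside both tables took 9.57% to 11.1% of a Saline library and 15.2% to 32.8% of a CDG_HDM library. Across all genes the median log2 change was -0.10, and it became 0.04 with all libraries brought to a common sum, 0.01 under median-of-ratios scaling and -0.01 under quantile normalization. Higher genes made up 29.1% of the calls as deposited and 62.8%, 51.0% and 46.1% under these 3 scalings. A call that held in its direction under all 4 scalings was found for 1630 higher genes (9.35%) and 2704 lower genes (15.5%), and CDG_HDM values lay wholly above Saline for 883 genes (5.06%) and wholly below for 1555 (8.92%). Those percentages are the background for every count below, where rose and fell mean called as deposited, a number under all 4 scalings is added where it differs, and list medians are given minus the all-gene median.

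**Figure D1:**
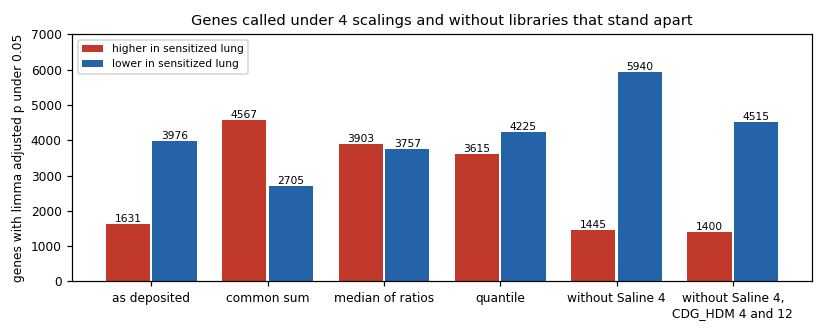
Number of genes called higher and lower in CDG_HDM (y axis, genes with a limma adjusted p under 0.05) as deposited, under 3 other scalings, and without libraries that stand apart. The count of higher genes runs from 1400 to 4567 and the count of lower genes from 2705 to 5940.

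Libraries of the same group were not equally alike. On the first principal component of the 15 libraries, which held 54.5% of the variance, Saline lay between -41.2 and -27.1 and CDG_HDM between 0.6 and 40.2, with CDG_HDM 4 highest. Saline 4 stood apart on the second component (-41.4), and CDG_HDM 12 was next (-21.7). CDG_HDM 12 also had the highest TPM outside the tables, at 32.8%. Without Saline 4 alone, 1445 genes were higher and 5940 lower, so counts of lower genes are the most exposed to 1 library. Without all 3 of these libraries, 1400 were higher and 4515 lower. A list's count that moves by over 1.5 times without these 3, or without any single library, is followed by the changed count in brackets.

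Antigen presentation was the pathway with the highest median change. For class II presentation, 12 of 13 tested members rose and the other 1 was not called, with a median of 1.70. The summed TPM of the list was 1611 to 2177 TPM in Saline and 4994 to 9569 TPM in CDG_HDM (median 7044). H2-Aa, the alpha chain of the I-A molecule, measured 320.0, 334, 303, 385 and 428 TPM in Saline 2, 4, 5, 8 and 10, the order used for Saline values throughout, and 1008 to 1911 TPM (median 1423) in CDG_HDM. Every sensitized lung exceeded every unsensitized lung, and no Saline library approached the lowest CDG_HDM value (log2 change 1.99 ± 0.147, limma adjusted p = 2.25e-11). Ctss, the cathepsin that trims the invariant chain, measured 117, 129, 112, 131 and 135 TPM in Saline and 381 to 877 TPM (median 610.1) in CDG_HDM. Again every sensitized lung was higher (log2 change 2.31 ± 0.162, limma adjusted p = 9.05e-12). Ciita, the transactivator of class II genes, measured 11.5 to 18.2 TPM in Saline and 28.7 to 46.6 in CDG_HDM, again without overlap (log2 change 1.20 ± 0.128, limma adjusted p = 2.15e-08).

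Class I presentation moved with it: 17 of 19 tested members rose and the other 2 were not called, with a median of 1.38 and no overlap of the summed TPM (2187 to 2781 TPM in Saline, 5240.2 to 7585 TPM in CDG_HDM (median 6132)). B2m, the light chain of class I molecules, measured 1149.5, 1008, 865, 1081 and 1148 TPM in Saline and 2501 to 3759.7 TPM (median 3016) in CDG_HDM. The unsensitized lungs were close together and all below the lowest sensitized lung (log2 change 1.54 ± 0.113, limma adjusted p = 1.71e-11). Nlrc5, the transactivator of class I genes, measured 15.3, 9.94, 10.3, 14.2 and 15.7 TPM in Saline and 37.9 to 71.3 TPM (median 47.1) in CDG_HDM. Saline and CDG_HDM did not overlap here either (log2 change 1.89 ± 0.166, limma adjusted p = 6.34e-10). Psmb8 and Psmb9, catalytic subunits that replace the standard ones in the immunoproteasome, were at 1.43 ± 0.152 and 1.48 ± 0.158, while of the proteasome subunits as a family 5 of 43 rose and 2 fell. The 5 were Psmb8, Psmb9, Psmb10, Psme1 and Psme2, all members of the class I list, and neither fall held under all 4 scalings (1 without Saline 8, Saline 10 or the 3 libraries that stand apart, and both lost without Saline 5).

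The interferon-induced GTPases, which attack the vacuoles of intracellular microbes, moved in 1 direction: all 17 tested members rose (15 without the 3 libraries that stand apart), with changes of 0.39 to 2.27 and a median of 1.21. Igtp measured 17.9, 13.1, 11.8, 19.1 and 16.6 TPM in Saline and 41.5 to 105 TPM (median 60.4) in CDG_HDM. CDG_HDM values spread more widely than Saline values but did not reach down to them (log2 change 1.96 ± 0.230, limma adjusted p = 1.2e-07). Gbp2 measured 26.7, 22.2, 22.3, 28.8 and 26.4 TPM in Saline and 36.3 to 67.9 TPM (median 45.9) in CDG_HDM. The gap between groups was narrower than for Igtp, with no overlap (log2 change 0.88 ± 0.163, limma adjusted p = 9.84e-05). The genes known best as targets of type I interferon did not move as a block: 4 of 23 tested members rose and 2 fell (1 under all 4 scalings, 1 without Saline 8), and the median was 0.02, close to that of all genes. Isg15, a ubiquitin-like modifier, measured 15.9 to 22.3 TPM in Saline and 13.3 to 20.2 in CDG_HDM and was not called (log2 change -0.24 ± 0.121, limma adjusted p = 0.122). Rsad2, the antiviral enzyme viperin, measured 5.97, 3.71, 7.55, 7.75 and 5.68 TPM in Saline and 2.32 to 4.72 TPM (median 3.23) in CDG_HDM. Most sensitized lungs were low and the ranges overlapped (log2 change -0.72 ± 0.146, limma adjusted p = 0.000315). In the STING list, 6 of 14 tested members rose (3 without the 3 libraries that stand apart) and the other 8 were not called (1 fell without any 1 of Saline 4, CDG_HDM 4, CDG_HDM 8 and CDG_HDM 9 or without the 3 libraries that stand apart). Tmem173, which encodes STING, measured 16.6, 12.3, 15.5, 18.7 and 19.2 TPM in Saline and 23.2 to 33.4 TPM (median 25.2) in CDG_HDM. The groups did not overlap (log2 change 0.70 ± 0.110, limma adjusted p = 1.22e-05), whereas the kinase gene Tbk1 was at 0.10 ± 0.0874 (limma adjusted p = 0.413).

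Promoter letters are printed for 4 of these genes because members of both lists rose nearly without exception. The sequences are the 250 bases before the RefSeq start on GRCm38.p6, 5′ to 3′ on the gene's strand. Capitals in the class II promoters mark GCAAC, found in X boxes, and CCAAT or its reverse complement ATTGG, found in Y boxes. Capitals in the GTPase promoters mark a pair of GAAA words 2 bases apart, the repeat of an interferon-stimulated response element, or its reverse complement.
H2-Aa, chr17:34287824-34288073, minus strand: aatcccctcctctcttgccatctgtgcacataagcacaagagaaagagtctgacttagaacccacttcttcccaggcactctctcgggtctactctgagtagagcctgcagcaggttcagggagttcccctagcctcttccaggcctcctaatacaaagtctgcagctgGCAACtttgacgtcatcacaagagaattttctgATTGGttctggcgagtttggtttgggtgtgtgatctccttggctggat
H2-Eb1, chr17:34305617-34305866, plus strand: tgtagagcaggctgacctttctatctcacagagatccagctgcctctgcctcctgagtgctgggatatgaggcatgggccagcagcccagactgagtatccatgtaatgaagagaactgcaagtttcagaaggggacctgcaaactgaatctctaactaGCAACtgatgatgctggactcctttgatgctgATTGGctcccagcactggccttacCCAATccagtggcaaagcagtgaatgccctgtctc
Igtp, chr11:58199306-58199555, plus strand: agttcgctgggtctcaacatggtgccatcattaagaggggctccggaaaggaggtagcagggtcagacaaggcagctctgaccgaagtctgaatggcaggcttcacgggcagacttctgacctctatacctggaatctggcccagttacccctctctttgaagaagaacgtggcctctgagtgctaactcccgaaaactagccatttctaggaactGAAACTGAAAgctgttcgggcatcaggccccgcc
Gbp2, chr3:142620413-142620662, plus strand: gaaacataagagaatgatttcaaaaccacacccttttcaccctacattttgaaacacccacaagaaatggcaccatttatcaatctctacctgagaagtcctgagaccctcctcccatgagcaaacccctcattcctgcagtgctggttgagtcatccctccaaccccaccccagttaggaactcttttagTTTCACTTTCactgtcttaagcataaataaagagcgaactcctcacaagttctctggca
In H2-Aa the marked GCAAC began 81 bases and ATTGG 48 bases before the start. H2-Eb1 had them at 91 and 59 bases, with a further CCAAT at 35. The GAAA pair began 34 bases before the start of Igtp and 59 before that of Gbp2. Searched on both strands, the GAAA pair was in 9 of the 10 GTPase promoters held by the RefSeq table, of 18 genes listed, against 3.04% of all 27025 promoters. It was in 6.17% of the promoters of genes called higher under all 4 scalings and in 1.74% of those called lower. GCAAC together with CCAAT was in 6 of 10 class II promoters, of 13 listed, against 10.8% of all promoters. The short words GCAAC and CCAAT occur in 30.1% and 34.5% of all promoters, and a match is letters only.

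**Figure D2:**
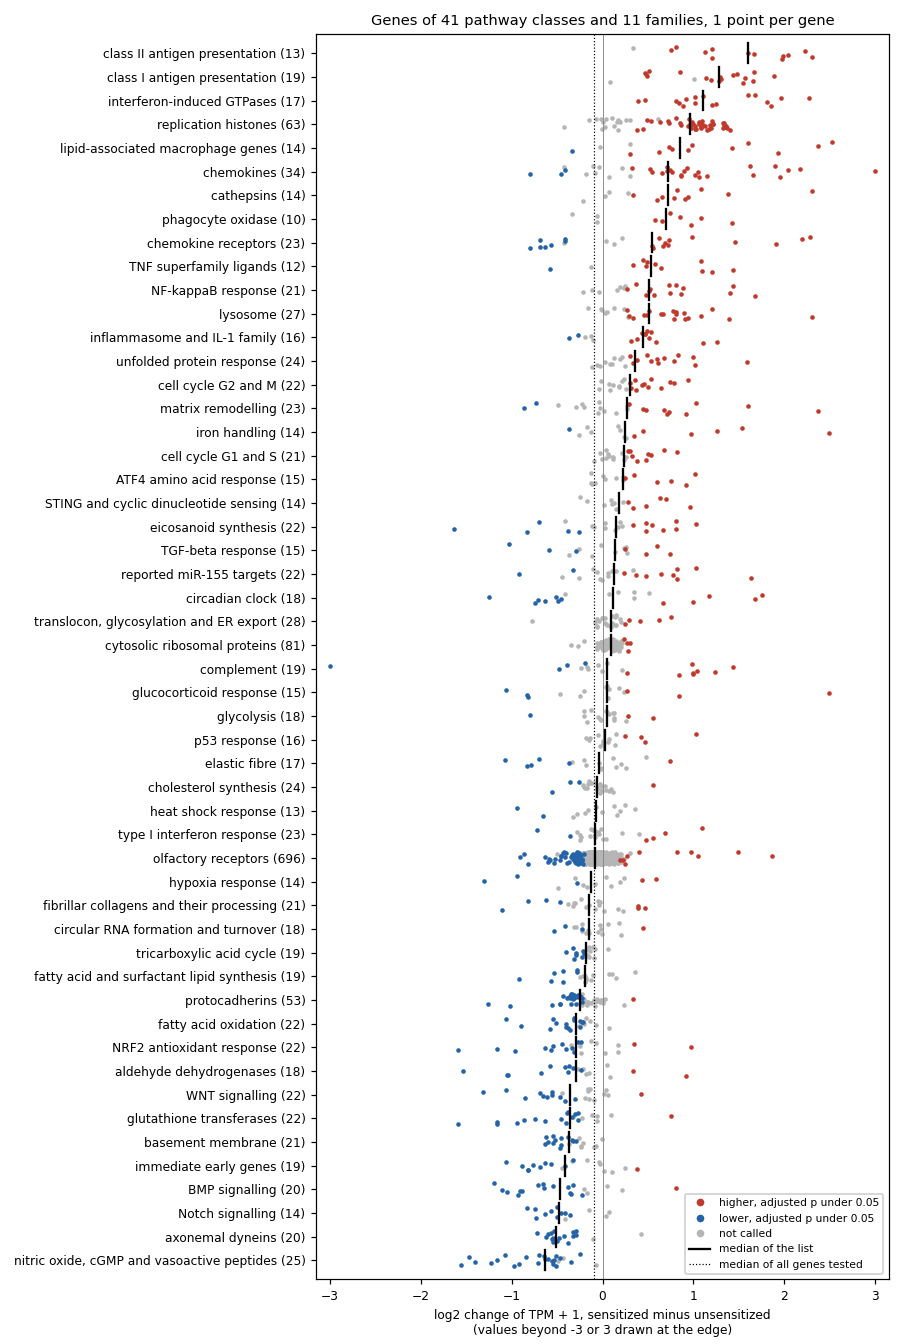
Log2 change of each tested gene (x axis, TPM + 1, CDG_HDM minus Saline) in 41 pathway lists and 11 gene families (y axis, number of tested genes in brackets), ordered by median. Points are genes, coloured by call, black ticks are list medians, and the dotted line is the all-gene median of -0.10. Both presentation lists and the interferon-induced GTPases lie at the top, and the nitric oxide and vasoactive peptide list lies at the bottom.

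Genes of antibody-secreting cells rose as a list, while those of resting B cells hardly did. Of the plasma cell genes, 14 of 15 tested members rose and the other 1 was not called, and their summed TPM was 434 to 510.0 TPM in Saline and 2424 to 4497 TPM in CDG_HDM (median 3836). Tnfrsf17, the receptor BCMA that keeps plasma cells alive, measured 1.91, 0.573, 2.97, 2.10 and 3.01 TPM in Saline and 6.62 to 13.2 TPM (median 9.63) in CDG_HDM. The lowest sensitized lung was above the highest unsensitized one (log2 change 1.80 ± 0.175, limma adjusted p = 4.8e-09). Of mature B cell genes, 4 of 17 tested members rose (1 without the 3 libraries that stand apart, 2 without any 1 of Saline 2, Saline 4, CDG_HDM 4 and CDG_HDM 8) and the other 13 were not called. Pax5, the factor that holds B cell identity, measured 10.6, 6.35, 13.0, 25.5 and 17.8 TPM in Saline and 7.18 to 32.0 TPM (median 13.3) in CDG_HDM. The Saline range alone was broad and covered most of the sensitized lungs (log2 change 0.07 ± 0.280, limma adjusted p = 0.878). Saline 4 had the lowest sum of this list of all 15 libraries.

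For germinal centre B cells, 8 of 11 tested members rose and 1 fell. Nuggc, a nuclear GTPase of germinal centre B cells, measured 0.243, 0.224, 0.237, 0.275 and 0.382 TPM in Saline and 1.91 to 6.20 TPM (median 2.75) in CDG_HDM. All Saline values were near 0 and the groups did not overlap (log2 change 1.67 ± 0.187, limma adjusted p = 4.7e-08). Gcsam, a germinal centre signalling protein, measured 2.41, 2.00, 2.18, 2.25 and 2.40 TPM in Saline and 5.90 to 10.5 TPM (median 7.59) in CDG_HDM. The unsensitized values were nearly equal and all lower (log2 change 1.43 ± 0.113, limma adjusted p = 8.83e-11). For follicular helper T cells, 7 of 10 tested members rose and the other 3 were not called (1 fell without Saline 4), among them Il21, which drives the B cell response (0.193 to 0.344 TPM in Saline and 0.589 to 1.97 in CDG_HDM; log2 change 0.65 ± 0.125, limma adjusted p = 0.000162). Cxcr5, the receptor that brings cells to follicles, was not called (log2 change 0.21 ± 0.176, limma adjusted p = 0.378). Nuggc and Il21 were under 1 TPM in every Saline library, so they entered the test only through the other groups.

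The stromal genes of lymphoid tissue rose too: 9 of 12 tested members rose and 1 fell, with sums of 286 to 330.4 TPM in Saline and 404 to 662 TPM in CDG_HDM (median 462). Ccl19, a ligand of CCR7, measured 13.6, 7.76, 14.5, 13.3 and 16.6 TPM in Saline and 20.5 to 68.1 TPM (median 27.6) in CDG_HDM. CDG_HDM reached several times the Saline level in its highest library and did not overlap it (log2 change 1.15 ± 0.234, limma adjusted p = 0.000293). Lta, the lymphotoxin that organises such stroma, measured 0.567, 0.714, 0.491, 1.00 and 0.766 TPM in Saline and 1.77 to 5.99 TPM (median 2.79) in CDG_HDM. Again all sensitized lungs were higher (log2 change 1.21 ± 0.152, limma adjusted p = 3.69e-07). Chst4, which sulfates ligands of L-selectin on high endothelial venules, fell (1.21 to 1.79 TPM in Saline and 0.472 to 0.758 in CDG_HDM; log2 change -0.62 ± 0.0880, limma adjusted p = 2.49e-06), and Madcam1, their adhesion molecule, was too low to be tested.

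**Figure D3:**
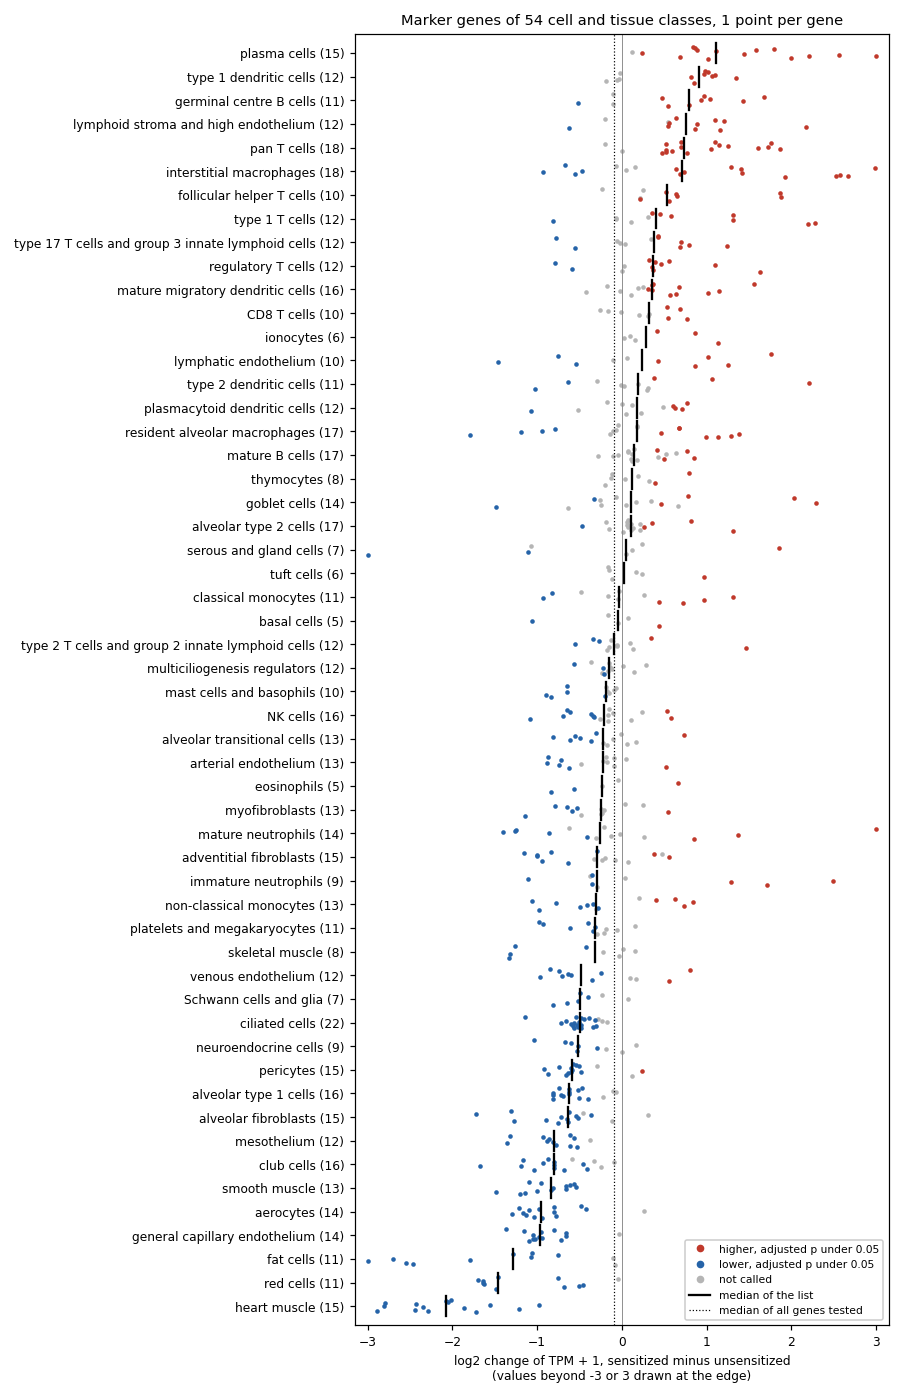
Log2 change of each tested marker gene (x axis, TPM + 1, CDG_HDM minus Saline) in 54 cell and tissue lists (y axis, number of tested genes in brackets), ordered by median. Points are genes, coloured by call, with list medians as black ticks and the all-gene median of -0.10 dotted. Plasma cell, type 1 dendritic cell and germinal centre B cell lists have the highest medians, and heart muscle, red cell and fat cell lists the lowest.

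General T cell genes rose (16 of 18 tested members rose and the other 2 were not called; median 0.83), and subset genes did so unevenly. Cd3g, a chain of the T cell receptor complex, measured 18.7, 13.0, 12.9, 19.1 and 21.9 TPM in Saline and 46.2 to 98.6 TPM (median 62.8) in CDG_HDM. The lowest sensitized lung had over 2 times the highest Saline value (log2 change 1.87 ± 0.171, limma adjusted p = 1.54e-09). The co-receptor Cd8a was not called (8.90 to 14.1 TPM in Saline and 9.24 to 17.1 in CDG_HDM; log2 change 0.21 ± 0.149, limma adjusted p = 0.307), and of the CD8 list 4 of 10 tested members rose (1 without the 3 libraries that stand apart, 2 without any 1 of Saline 4, Saline 5, CDG_HDM 4, CDG_HDM 13 and CDG_HDM 14) and the other 6 were not called (2 fell without Saline 4 or without the 3 libraries that stand apart). For regulatory T cells, 8 of 12 tested members rose (5 without Saline 4 or without the 3 libraries that stand apart) and 2 fell. Their defining factor Foxp3 measured 4.94, 2.84, 4.25, 4.42 and 4.83 TPM in Saline and 3.55 to 4.91 TPM (median 4.28) in CDG_HDM. All 10 sensitized lungs lay within the Saline range (log2 change 0.00 ± 0.0957, limma adjusted p = 0.978). Itgae, the integrin chain of tissue-resident T cells and of type 1 dendritic cells, rose without overlap (7.29 to 9.68 TPM in Saline and 16.1 to 23.6 in CDG_HDM; log2 change 1.10 ± 0.0983, limma adjusted p = 8.39e-10).

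Among type 1 genes, 7 of 12 tested members rose and 1 fell. Cxcr6, a homing receptor of resident lymphocytes, measured 7.79, 5.11, 8.11, 9.06 and 8.19 TPM in Saline and 28.9 to 67.8 TPM (median 40.2) in CDG_HDM. There was no overlap (log2 change 2.28 ± 0.180, limma adjusted p = 8.36e-11). The fall in that list was Hopx, which alveolar type 1 cells express far more strongly. For the type 17 list, 6 of 12 tested members rose and 2 fell, including Cd163l1, a receptor of gamma delta T cells (0.851 to 1.69 TPM in Saline and 2.40 to 7.95 in CDG_HDM; log2 change 1.24 ± 0.193, limma adjusted p = 1.04e-05). The falls there were Sox13 and Ahr, both also expressed outside lymphocytes. For type 2 cells, 2 of 12 tested members rose (1 without Saline 4 or Saline 8 or without the 3 libraries that stand apart) and 3 fell (2 under all 4 scalings). Gata3, their defining factor, measured 4.84 to 7.40 TPM in Saline and 4.94 to 6.73 in CDG_HDM and was not called (log2 change -0.15 ± 0.0989, limma adjusted p = 0.243). Of NK cell genes, 2 of 16 tested members rose (1 without any 1 of Saline 4, Saline 5, CDG_HDM 4, CDG_HDM 13 and CDG_HDM 14 or without the 3 libraries that stand apart) and 7 fell (6 under all 4 scalings, 11 without Saline 4). The 2 risers, Il2rb and Nkg7, are shared with T cells, and Eomes was not called (log2 change -0.17 ± 0.102, limma adjusted p = 0.223; adjusted p = 0.00668 without Saline 4).

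Mononuclear phagocyte genes separated by subset. Of interstitial macrophage genes, 11 of 18 tested members rose and 4 fell (3 under all 4 scalings), and their sum was 1060.1 to 1430.2 TPM in Saline and 2667 to 5704 TPM in CDG_HDM (median 4039). The falls included F13a1 and Cd163, both markers of perivascular macrophages (-0.93 and -0.55). For resident alveolar macrophages, 7 of 17 tested members rose and 4 fell. Pparg, which alveolar macrophages need to mature, measured 8.69 to 11.6 TPM in Saline and 8.54 to 14.98 in CDG_HDM and Siglecf measured 8.23 to 10.6 TPM in Saline and 6.48 to 10.8 in CDG_HDM, and neither was called. Ctsk, a cathepsin that degrades collagen, rose (18.7 to 23.5 TPM in Saline and 34.1 to 75.9 in CDG_HDM; log2 change 1.38 ± 0.161, limma adjusted p = 1.01e-07), and Cidec, a lipid droplet protein also of fat cells, fell (log2 change -1.79 ± 0.342, limma adjusted p = 0.000152). Ly6c2, a surface protein of classical monocytes that also stands in the type 1 T cell list, rose (30.2 to 46.4 TPM in Saline and 66.9 to 131 in CDG_HDM; log2 change 1.31 ± 0.162, limma adjusted p = 2.75e-07). The classical monocyte list as a whole gave 4 rises and 2 falls. Its sum ran lower, at 1165 to 1499 TPM in Saline and 875 to 1166 TPM in CDG_HDM. Of the non-classical list, 4 of 13 tested members rose and 7 fell (4 under all 4 scalings). Ace, counted in that list but strongest in capillary endothelium, was among the falls (log2 change -0.97 ± 0.179, limma adjusted p = 9.33e-05).

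Dendritic cell classes also differed in their counts. For type 1 dendritic cells, 8 of 12 tested members rose and the other 4 were not called, with a median of 1.01. Xcr1, their chemokine receptor, measured 3.85, 2.95, 3.99, 3.99 and 4.59 TPM in Saline and 7.34 to 11.2 TPM (median 8.19) in CDG_HDM. The sensitized lungs were all higher (log2 change 0.98 ± 0.106, limma adjusted p = 2.72e-08). Clec9a, their receptor for dead cells, measured 23.2 to 45.1 TPM in Saline and 25.9 to 44.2 in CDG_HDM and was not called (log2 change -0.04 ± 0.136, limma adjusted p = 0.859). For type 2 dendritic cells, 3 of 11 tested members rose and 2 fell (1 under all 4 scalings, 1 without any 1 of Saline 2, Saline 4, Saline 5, CDG_HDM 4, CDG_HDM 12, CDG_HDM 13 and CDG_HDM 14 or without the 3 libraries that stand apart). Irf4, which these cells share with plasma cells and activated T cells, measured 12.4, 6.75, 14.8, 13.3 and 18.1 TPM in Saline and 35.4 to 86.1 TPM (median 62.1) in CDG_HDM. The groups did not overlap (log2 change 2.21 ± 0.184, limma adjusted p = 2.2e-10). For mature migratory dendritic cells, 10 of 16 tested members rose and the other 6 were not called (1 fell without Saline 4 or CDG_HDM 4 or without the 3 libraries that stand apart). Fscn1, the actin bundler of migrating dendritic cells, rose (8.66 to 12.9 TPM in Saline and 18.5 to 37.1 in CDG_HDM; log2 change 1.14 ± 0.134, limma adjusted p = 1.19e-07), while Ccr7, their homing receptor, was not called (11.0 to 28.1 TPM in Saline and 9.33 to 16.3 in CDG_HDM; log2 change -0.43 ± 0.173, limma adjusted p = 0.0592; adjusted p = 0.0088 without Saline 4 and 0.0464 without CDG_HDM 4).

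Genes of phagocyte function rose with these markers. Of lysosome genes, 19 of 27 tested members rose and the other 8 were not called, with sums of 2876 to 3318 TPM in Saline and 4284 to 7196 TPM in CDG_HDM (median 5642). Psap, the precursor of the saposins, measured 540.3, 451, 563, 597 and 587 TPM in Saline and 929 to 1907 TPM (median 1248) in CDG_HDM. All CDG_HDM values were higher (log2 change 1.20 ± 0.136, limma adjusted p = 6.75e-08). The general lysosomal membrane gene Lamp1 was not called (277 to 295 TPM in Saline and 244 to 326 in CDG_HDM; log2 change 0.02 ± 0.0887, limma adjusted p = 0.858), and the vacuolar ATPase as a family gave 4 rises and 2 falls among 22. For the phagocyte oxidase, 7 of 10 tested members rose and the other 3 were not called (1 fell without Saline 4 or without the 3 libraries that stand apart), including its catalytic subunit Cybb (66.4 to 108 TPM in Saline and 179.6 to 359.8 in CDG_HDM; log2 change 1.42 ± 0.155, limma adjusted p = 2.88e-08). Of genes of lipid-associated macrophages, 11 of 14 tested members rose and 1 fell (0 under all 4 scalings, lost without Saline 8 or Saline 10). Trem2, their lipid receptor, measured 3.76, 5.12, 3.75, 5.04 and 4.60 TPM in Saline and 18.2 to 49.8 TPM (median 28.7) in CDG_HDM. The lowest sensitized lung had over 3 times the highest Saline value (log2 change 2.52 ± 0.182, limma adjusted p = 1.54e-11). Slamf8, a regulator of phagocyte oxidase activity, was among 7 of 9 Slamf family genes that rose (2.02 to 2.20 TPM in Saline and 9.48 to 28.0 in CDG_HDM; log2 change 2.57 ± 0.187, limma adjusted p = 1.64e-11).

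For NF-kappaB response genes, 14 of 21 tested members rose and the other 7 were not called (1 fell without Saline 4 or CDG_HDM 9). Tnf measured 3.64, 2.53, 2.01, 2.80 and 3.57 TPM in Saline and 6.93 to 14.4 TPM (median 9.18) in CDG_HDM. Every sensitized lung was higher (log2 change 1.44 ± 0.138, limma adjusted p = 3.76e-09). Relb, a subunit of the factor itself, was not called (log2 change 0.24 ± 0.109, limma adjusted p = 0.0853). For the inflammasome list, 11 of 16 tested members rose (7 without the 3 libraries that stand apart) and 2 fell (0 under all 4 scalings, lost without any 1 of Saline 2, Saline 8 and Saline 10, 1 without any 1 of Saline 5, CDG_HDM 4, CDG_HDM 12 and CDG_HDM 14 or without the 3 libraries that stand apart), including Casp1, the caspase that activates IL-1 beta (7.17 to 10.5 TPM in Saline and 18.7 to 28.2 in CDG_HDM; log2 change 1.26 ± 0.120, limma adjusted p = 2.96e-09). Of chemokine genes 23 of 34 rose and 3 fell, of chemokine receptors 12 of 23 rose and 7 fell, and of TNF superfamily ligands 10 of 12 rose and 1 fell. The falling ligand was Tnfsf10, the death ligand TRAIL (60.6 to 79.5 TPM in Saline and 37.5 to 55.4 in CDG_HDM; log2 change -0.58 ± 0.111, limma adjusted p = 0.000168). C-type lectins were divided, with 11 of 31 higher and 11 lower. Clec4n, the receptor dectin-2 for fungal and mite glycans, rose (30.8 to 45.4 TPM in Saline and 69.9 to 122 in CDG_HDM; log2 change 1.31 ± 0.128, limma adjusted p = 4.4e-09), and Cd209f fell (log2 change -1.22 ± 0.128, limma adjusted p = 1.79e-08). Iron genes gave 6 rises and 1 fall among 14 (2 falls without Saline 4, CDG_HDM 3 or the 3 libraries that stand apart), among the rises the metalloreductase Steap4 (14.2 to 27.2 TPM in Saline and 41.9 to 71.0 in CDG_HDM; log2 change 1.54 ± 0.135, limma adjusted p = 6.59e-10).

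Platelet and red cell genes fell or were not called, and granulocyte genes were divided. Of mature neutrophil genes, 3 of 14 tested members rose and 5 fell (8 without the 3 libraries that stand apart), and the 3 rises were Clec4d, Lrg1 and Slpi, which other cell types also express. Of the immature neutrophil genes, 3 of 9 tested members rose and 3 fell (2 under all 4 scalings, 1 without Saline 10), with sums of 212 to 305 TPM in Saline and 563 to 1032 TPM in CDG_HDM (median 701). The rises were Lcn2, Cd177 and Chil3 (1.28 to 2.49 on the log2 scale), of which macrophages also express Chil3 and epithelium Lcn2. Of its defining granule genes, Ltf fell (26.7 to 113 TPM in Saline and 21.1 to 49.1 in CDG_HDM; log2 change -1.11 ± 0.360, limma adjusted p = 0.018), a call lost without any 1 of Saline 2, Saline 5 and Saline 10. Camp, Ngp and Mpo were not called, but Camp fell without the 3 libraries that stand apart. Of the mast cell and basophil genes, 5 of 10 tested members fell (4 under all 4 scalings) and the other 5 were not called, of platelet genes, 6 of 11 tested members fell (4 under all 4 scalings) and the other 5 were not called, and of red cell genes, 10 of 11 tested members fell and the other 1 was not called. Hba-a1, an alpha globin, measured 4743, 5001, 7249, 5575 and 4629 TPM in Saline and 747 to 3113 TPM (median 2123) in CDG_HDM. Unsensitized lungs all held more, and the lowest value was in CDG_HDM 4 (log2 change -1.63 ± 0.248, limma adjusted p = 7.48e-06). The globin genes have near-identical copies, so how reads were divided among them is uncertain. Eosinophil, basophil and neutrophil precursor genes Epx, Mcpt8 and Elane were too low to be tested.

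Secretory pathway genes rose beside the plasma cell genes. In the unfolded protein response, 13 of 24 tested members rose and the other 11 were not called, with a median of 0.45. Edem1, which hands misfolded glycoproteins to degradation, measured 8.15, 12.0, 9.00, 6.82 and 9.15 TPM in Saline and 23.1 to 33.0 TPM (median 30.8) in CDG_HDM. The groups did not overlap (log2 change 1.60 ± 0.127, limma adjusted p = 1.02e-10). Xbp1, the factor that expands the endoplasmic reticulum in plasma cells, measured 104, 115, 109, 102 and 92.2 TPM in Saline and 139 to 219.9 TPM (median 190.4) in CDG_HDM. Here too the sensitized lungs were all higher (log2 change 0.84 ± 0.111, limma adjusted p = 8.97e-07). Hspa5, the chaperone BiP, measured 289, 254, 304, 285 and 235 TPM in Saline and 231 to 463 TPM (median 362) in CDG_HDM. Its ranges overlapped and it was not called (log2 change 0.37 ± 0.161, limma adjusted p = 0.0787; adjusted p = 0.0453 without CDG_HDM 3 and 0.0303 without CDG_HDM 12). Of the translocon and glycosylation genes, 5 of 28 tested members rose (3 without any 1 of Saline 5, Saline 10, CDG_HDM 7 and CDG_HDM 9) and the other 23 were not called. In the ATF4 list, 6 of 15 tested members rose and the other 9 were not called, but Asns, Chac1 and Trib3, its usual reporters, were not called (adjusted p = 0.458, 0.738 and 0.354, limma). Heat shock genes varied within groups: Hspa1a ran from 4.01 to 73.9 TPM among the 5 Saline lungs and from 2.80 to 78.5 among the CDG_HDM lungs.

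Because the members did not move together, the promoters of Hspa5, which was not called, and Creld2, which rose (log2 change 1.02 ± 0.158, limma adjusted p = 1e-05), are shown, again as the 250 bases before the start. Capitals mark the endoplasmic reticulum stress element, CCAAT and CCACG 9 bases apart, or its reverse complement.
Hspa5, chr2:34771840-34772089, plus strand: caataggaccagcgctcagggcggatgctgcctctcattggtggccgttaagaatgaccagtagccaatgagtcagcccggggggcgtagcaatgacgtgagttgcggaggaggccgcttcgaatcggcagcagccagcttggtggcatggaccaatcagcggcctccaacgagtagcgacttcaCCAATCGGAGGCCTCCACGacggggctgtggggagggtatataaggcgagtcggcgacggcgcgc
Creld2, chr15:88819396-88819645, plus strand: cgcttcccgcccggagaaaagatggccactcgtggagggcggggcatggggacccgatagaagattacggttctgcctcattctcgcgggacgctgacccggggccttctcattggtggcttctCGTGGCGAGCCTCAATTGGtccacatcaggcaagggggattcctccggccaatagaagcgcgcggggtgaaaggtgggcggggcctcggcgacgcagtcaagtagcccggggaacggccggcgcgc
Both held the element, beginning 65 bases before the start in Hspa5 and 126 in Creld2. It was in 8 of the 20 promoters of this list that the RefSeq table holds, against 0.122% of all promoters on both strands.

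**Figure D4:**
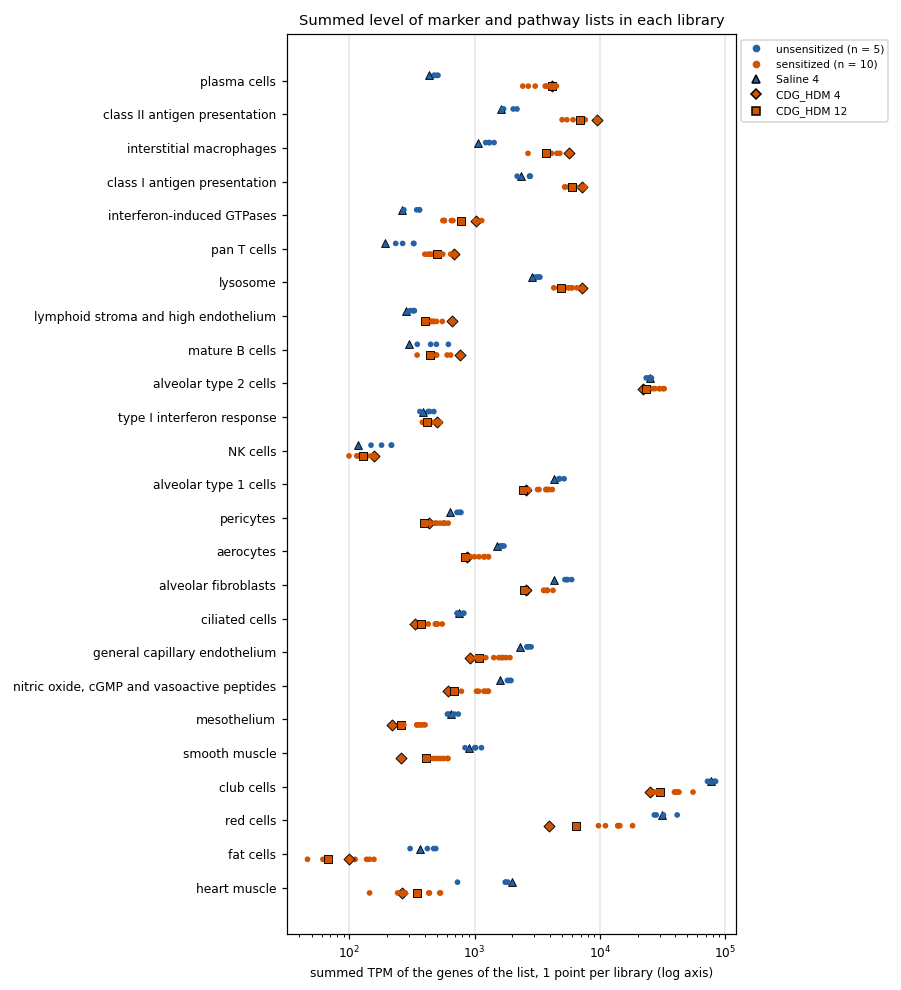
Summed TPM (x axis, log scale) of 25 marker and pathway lists (y axis) in each of the 5 Saline and 10 CDG_HDM libraries, with Saline 4, CDG_HDM 4 and CDG_HDM 12 set apart by shape. Plasma cell and class II sums do not overlap between groups, heart muscle, red cell and club cell sums are lower in all sensitized lungs, and the alveolar type 2 and mature B cell sums overlap.

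Cell cycle genes rose by less than 2-fold. In the G1 and S list, 9 of 21 tested members rose and the other 12 were not called, with changes of 0.28 to 0.82, and in the G2 and M list, 12 of 22 tested members rose and the other 10 were not called, with changes of 0.30 to 0.94. Rrm2, a subunit of ribonucleotide reductase, measured 2.82, 2.90, 1.82, 3.08 and 3.24 TPM in Saline and 3.82 to 9.81 TPM (median 5.49) in CDG_HDM. All sensitized lungs were higher (log2 change 0.82 ± 0.147, limma adjusted p = 7.69e-05). The replication histones, whose transcripts end in a stem-loop and carry no poly(A) tail, also rose: 45 of 63 tested members rose and the other 18 were not called (1 fell without Saline 4 or without the 3 libraries that stand apart), with a median of 1.06. By class, 3 of 5 tested H1 genes rose, 11 of 17 of H2A, 14 of 17 of H2B, 10 of 12 of H3 and 7 of 12 of H4. The summed TPM overlapped (5133 to 7661 TPM in Saline, 6452 to 18300.4 TPM in CDG_HDM (median 9113)), and the highest sum was in CDG_HDM 4. Only 9 of the 63 genes had CDG_HDM values wholly above Saline.

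The stem-loops of 4 histone genes are printed because those that rose and those that did not share the same element. Each is 26 bases of GRCm38, with the 16 bases of the stem-loop in capitals.
Hist1h1b, chr13:21779832-21779857, minus strand, rose: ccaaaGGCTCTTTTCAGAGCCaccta
Hist1h4b, chr13:23757361-23757386, plus strand, rose: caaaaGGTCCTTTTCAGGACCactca
Hist1h2bc, chr13:23684642-23684667, plus strand, not called: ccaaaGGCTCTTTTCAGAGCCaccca
Hist1h4h, chr13:23531453-23531478, plus strand, not called: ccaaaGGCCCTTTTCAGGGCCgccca
Hist1h1b measured 16.4, 18.9, 10.9, 15.1 and 19.5 TPM in Saline and 20.6 to 109 TPM (median 42.8) in CDG_HDM. The sensitized range was wide and began just above the highest Saline value (log2 change 1.40 ± 0.240, limma adjusted p = 3.77e-05). Hist1h4h was the most abundant histone gene of those 4 and was not called (log2 change 0.16 ± 0.108, limma adjusted p = 0.266). An element of this form was found at the end of 61 of the 63 tested genes, of which 44 rose. Many of these genes are near-identical copies, so the division of reads among them is uncertain.

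Epithelial genes differed between alveolus and airway. For alveolar type 1 cells, 13 of 16 tested members fell (12 under all 4 scalings) and the other 3 were not called, with a median of -0.52. Ager, their receptor for glycated proteins, measured 1968, 1689, 1962, 2238 and 1951 TPM in Saline and 1087 to 1837 TPM (median 1544) in CDG_HDM. The sensitized lungs tended lower, and 3 of 10 lay within the Saline range (log2 change -0.40 ± 0.119, limma adjusted p = 0.00957). For alveolar type 2 cells, 4 of 17 tested members rose and 1 fell (0 under all 4 scalings), and the summed TPM overlapped (23432 to 25762 TPM in Saline, 22217 to 32590.3 TPM in CDG_HDM (median 27017)). Sftpc, their defining surfactant protein, measured 19179, 18982, 17419, 19307 and 17999 TPM in Saline and 15835 to 24047 TPM (median 19376) in CDG_HDM. Sensitized lungs lay on both sides of the Saline range (log2 change 0.07 ± 0.109, limma adjusted p = 0.682). Chil1, a chitinase-like protein, rose without overlap (267 to 383 TPM in Saline and 632 to 1038 in CDG_HDM; log2 change 1.31 ± 0.117, limma adjusted p = 9.02e-10). In the alveolar transitional cell list, 1 member rose (0.74) and 6 fell (-0.81 to -0.30). The summed TPM of that list overlapped (671 to 758 TPM in Saline, 559 to 848 TPM in CDG_HDM). Among the falls was Krt19 (139 to 167 TPM in Saline and 58.8 to 103 in CDG_HDM; log2 change -0.81 ± 0.117, limma adjusted p = 3.32e-06), which mesothelium also expresses.

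Club and ciliated cell genes fell, while goblet cell genes divided. Of club cell genes, 12 of 16 tested members fell (10 under all 4 scalings) and the other 4 were not called, with sums of 72223 to 83888 TPM in Saline and 24981 to 55339 TPM in CDG_HDM (median 39666). Such a sum follows the most abundant members of a list and does not give the level of each gene. Scgb3a2, a secretoglobin and a small part of that sum, measured 1395, 1492, 1178, 1053 and 1396 TPM in Saline and 430.2 to 1054 TPM (median 719) in CDG_HDM. Nearly all sensitized lungs were lower, and 1 just reached the lowest Saline value (log2 change -0.87 ± 0.184, limma adjusted p = 0.000448). Of goblet cell genes, 4 of 14 tested members rose and 2 fell (1 under all 4 scalings, 1 without any 1 of Saline 2, Saline 5, Saline 10, CDG_HDM 4, CDG_HDM 7, CDG_HDM 12, CDG_HDM 13 and CDG_HDM 14). Their defining factor Spdef measured 2.01 to 2.79 TPM in Saline and 1.46 to 2.73 in CDG_HDM and was not called (log2 change -0.07 ± 0.105, limma adjusted p = 0.63). Clca1 reached 35.8 TPM in 1 CDG_HDM lung with a median of 3.45, and was not called (log2 change 0.66 ± 0.530, limma adjusted p = 0.361). Gp2, a glycoprotein of M cells that binds bacteria, was among the rises (0.0850 to 0.876 TPM in Saline and 3.20 to 9.19 in CDG_HDM; log2 change 2.29 ± 0.353, limma adjusted p = 9.19e-06). Of ciliated cell genes, 19 of 22 tested members fell (16 under all 4 scalings) and the other 3 were not called, of axonemal dyneins 18 of 20 fell (1 rose without any 1 of Saline 5, Saline 8 and CDG_HDM 5), and of cilia and flagella associated proteins, 19 of 26 tested members fell (13 under all 4 scalings, 9 without Saline 10, 12 without Saline 5) and the other 7 were not called. Hydin, a protein of the central pair of the cilium, measured 5.74, 5.49, 6.45, 5.01 and 6.83 TPM in Saline and 2.63 to 4.21 TPM (median 3.35) in CDG_HDM. The sensitized lungs were all lower (log2 change -0.67 ± 0.130, limma adjusted p = 0.000196). Foxj1, the factor that switches ciliogenesis on, measured 31.5 to 45.9 TPM in Saline and 20.99 to 47.8 in CDG_HDM and was not called (log2 change -0.17 ± 0.179, limma adjusted p = 0.496). Dclk1, used as a tuft cell marker, rose (4.41 to 6.49 TPM in Saline and 10.3 to 14.6 in CDG_HDM; log2 change 0.97 ± 0.105, limma adjusted p = 2.54e-08), while the tuft cell factor Pou2f3 was not called (log2 change -0.16 ± 0.0763, limma adjusted p = 0.119; adjusted p = 0.0322 without Saline 4). The basal cell keratins Krt5 and Krt14 and the ionocyte factors Foxi1 and Ascl3 were too low to be tested. Untested Krt14 measured 0.406 to 0.798 TPM in Saline and 0.0239 to 0.373 in CDG_HDM, without overlap. Krt5, at 0.394 to 1.55 and 0.0842 to 0.422 TPM, overlapped.

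Nearly all tested genes of capillary endothelium fell. For general capillary cells, 13 of 14 tested members fell and the other 1 was not called, with a median of -0.87 and sums of 2303 to 2823 TPM in Saline and 910.5 to 1914 TPM in CDG_HDM (median 1489.9). For aerocytes, the capillary cells of gas exchange, 13 of 14 tested members fell (12 under all 4 scalings) and the other 1 was not called (1 rose without any 1 of CDG_HDM 3, CDG_HDM 8 and CDG_HDM 12 or without the 3 libraries that stand apart), with a median of -0.86. Plvap, the diaphragm protein of fenestrae, measured 241, 219, 264, 279.9 and 233 TPM in Saline and 86.4 to 177 TPM (median 132) in CDG_HDM. No sensitized lung reached the lowest Saline value (log2 change -0.95 ± 0.161, limma adjusted p = 3.14e-05). Car4, the carbonic anhydrase on aerocytes, measured 125, 123, 126, 131 and 130.5 TPM in Saline and 31.9 to 91.4 TPM (median 62.1) in CDG_HDM. Saline values lay within a narrow band above all others (log2 change -1.04 ± 0.181, limma adjusted p = 4.88e-05). Epas1, the hypoxia factor HIF-2 alpha that is abundant in lung endothelium, measured 509.9, 507, 528, 499 and 454 TPM in Saline and 123 to 301 TPM (median 228) in CDG_HDM. It was separated in the same way (log2 change -1.30 ± 0.199, limma adjusted p = 8.12e-06), while Hif1a rose (20.7 to 27.6 TPM in Saline and 27.6 to 44.5 in CDG_HDM; log2 change 0.44 ± 0.0959, limma adjusted p = 0.000643).

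Larger vessels and lymphatics were more mixed. For arterial endothelium, 1 of 13 tested members rose and 5 fell, and for venous endothelium, 2 of 12 tested members rose (1 without Saline 8) and 8 fell (6 under all 4 scalings, 5 without Saline 5). Cxcl12, a chemokine of arterial cells and stroma, measured 79.64, 53.9, 67.3, 70.2 and 76.2 TPM in Saline and 82.7 to 117 TPM (median 99.4) in CDG_HDM. It was higher in every sensitized lung (log2 change 0.53 ± 0.0937, limma adjusted p = 6.36e-05). Sox17, the arterial factor, was not called (log2 change -0.19 ± 0.142, limma adjusted p = 0.32). Vcam1, the adhesion molecule for lymphocytes, measured 35.9, 37.9, 37.3, 45.8 and 39.9 TPM in Saline and 56.2 to 75.5 TPM (median 71.6) in CDG_HDM. Its groups did not overlap (log2 change 0.80 ± 0.0897, limma adjusted p = 4.7e-08), whereas Vwf, the venous and arterial clotting factor, fell (107 to 149.7 TPM in Saline and 42.1 to 101 in CDG_HDM; log2 change -0.85 ± 0.177, limma adjusted p = 0.000384). In the lymphatic list, 5 of 10 tested members rose and 3 fell, and its defining factor Prox1 measured 2.14 to 2.71 TPM in Saline and 2.13 to 3.03 in CDG_HDM and was not called (log2 change 0.06 ± 0.0830, limma adjusted p = 0.63).

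Most mesenchymal lists held more falls than rises. Of smooth muscle genes, all 13 tested members fell, with changes of -1.49 to -0.54 and sums of 839 to 1135 TPM in Saline and 256 to 613 TPM in CDG_HDM (median 503). Des, the intermediate filament desmin, measured 74.8, 66.2, 85.7, 63.1 and 80.7 TPM in Saline and 24.8 to 47.4 TPM (median 38.0) in CDG_HDM. Sensitized values were all lower (log2 change -0.999 ± 0.163, limma adjusted p = 2.03e-05). Of pericyte genes, 1 of 15 tested members rose (lost without any 1 of Saline 2, Saline 4, Saline 5, Saline 8, CDG_HDM 4, CDG_HDM 7, CDG_HDM 8, CDG_HDM 9, CDG_HDM 10, CDG_HDM 13 and CDG_HDM 14 or without the 3 libraries that stand apart) and 12 fell, of alveolar fibroblast genes, 12 of 15 tested members fell (11 under all 4 scalings) and the other 3 were not called (1 rose without Saline 8 or CDG_HDM 3), and of mesothelial genes, 11 of 12 tested members fell and the other 1 was not called. Fgfr4, a growth factor receptor of alveolar fibroblasts, measured 23.9, 28.7, 22.7, 20.7 and 20.2 TPM in Saline and 5.53 to 13.0 TPM (median 9.94) in CDG_HDM. There was a clear gap between groups (log2 change -1.27 ± 0.161, limma adjusted p = 4.1e-07). Upk3b, a mesothelial membrane protein, measured 43.3, 46.6, 43.9, 53.5 and 39.3 TPM in Saline and 11.4 to 22.5 TPM (median 20.1) in CDG_HDM. This gene was likewise without overlap (log2 change -1.32 ± 0.181, limma adjusted p = 1.5e-06). Adventitial fibroblasts were divided (2 of 15 tested members rose and 7 fell (6 under all 4 scalings)): Pi16, the marker of a progenitor-like state, fell (log2 change -1.16 ± 0.168, limma adjusted p = 3.69e-06), Col14a1 was not called (log2 change -0.08 ± 0.161, limma adjusted p = 0.742) and Dpt, a dermatopontin, rose (log2 change 0.55 ± 0.115, limma adjusted p = 0.000425).

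The matrix did not follow the fibroblast markers. Of fibrillar collagen genes, 3 of 21 tested members rose (lost without any 1 of Saline 2, Saline 8 and CDG_HDM 10, 1 without any 1 of Saline 4, Saline 5, Saline 10, CDG_HDM 5, CDG_HDM 7, CDG_HDM 9 and CDG_HDM 13) and 4 fell. Col1a1 measured 39.2 to 74.5 TPM in Saline and 41.4 to 73.1 in CDG_HDM and was not called (log2 change 0.17 ± 0.156, limma adjusted p = 0.431; adjusted p = 0.0304 without the 3 libraries that stand apart), and Col3a1 measured 197 to 236 TPM in Saline and 211 to 482 in CDG_HDM and rose with overlap (log2 change 0.46 ± 0.172, limma adjusted p = 0.0381; adjusted p = 0.0884 without Saline 2, 0.079 without Saline 5, 0.0816 without Saline 8, 0.05 without Saline 10, 0.0617 without CDG_HDM 5, 0.0535 without CDG_HDM 7, 0.0563 without CDG_HDM 9, 0.066 without CDG_HDM 10 and 0.065 without CDG_HDM 13). Of basement membrane genes, 13 of 21 tested members fell (10 under all 4 scalings) and the other 8 were not called, with Col4a1 not called (log2 change -0.07 ± 0.137, limma adjusted p = 0.736) and Hspg2, the proteoglycan perlecan, lower (74.5 to 84.9 TPM in Saline and 41.4 to 68.4 in CDG_HDM; log2 change -0.55 ± 0.115, limma adjusted p = 0.000425). Of matrix remodelling genes, 10 of 23 tested members rose and 2 fell. Tnc, tenascin C of injured tissue, measured 9.41, 8.84, 9.17, 8.90 and 11.6 TPM in Saline and 11.6 to 39.1 TPM (median 20.3) in CDG_HDM. The lowest sensitized value sat at the top of the Saline range (log2 change 1.03 ± 0.216, limma adjusted p = 0.000457). Ltbp4, which places TGF-beta on elastic fibres, fell (148 to 181 TPM in Saline and 49.6 to 114 in CDG_HDM; log2 change -1.07 ± 0.178, limma adjusted p = 2.84e-05).

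Signalling genes of resident cells were lower in several pathways. Among nitric oxide, cGMP and vasoactive peptide genes, 22 of 25 tested members fell (20 under all 4 scalings) and the other 3 were not called, with a median of -0.54. Calcrl, the receptor for CGRP and adrenomedullin, measured 378, 275, 409, 416 and 393 TPM in Saline and 75.5 to 239.8 TPM (median 169) in CDG_HDM. Every sensitized lung was lower (log2 change -1.23 ± 0.209, limma adjusted p = 3.56e-05). Chrm2, the muscarinic receptor that limits acetylcholine release, measured 8.60, 6.08, 7.07, 4.91 and 8.48 TPM in Saline and 1.37 to 3.23 TPM (median 1.86) in CDG_HDM. It also showed no overlap (log2 change -1.40 ± 0.151, limma adjusted p = 2.54e-08), and heart muscle expresses it too. Of BMP genes, 1 of 20 tested members rose and 15 fell (10 under all 4 scalings), including Bmpr2, the receptor mutated in hereditary pulmonary hypertension (99.0 to 139.9 TPM in Saline and 45.4 to 99.1 in CDG_HDM; log2 change -0.91 ± 0.178, limma adjusted p = 0.000204). Of Notch genes, 10 of 14 tested members fell (9 under all 4 scalings) and the other 4 were not called, and of WNT genes, 1 of 22 tested members rose and 11 fell (10 under all 4 scalings). Wnt2, a fibroblast ligand that supports alveolar cells, measured 17.4, 16.4, 17.3, 20.1 and 16.3 TPM in Saline and 3.82 to 13.7 TPM (median 6.19) in CDG_HDM. CDG_HDM lay below Saline throughout (log2 change -1.31 ± 0.194, limma adjusted p = 4.71e-06), while Wnt5a was not called (log2 change 0.03 ± 0.0930, limma adjusted p = 0.809). The family counts ran the same way: 11 of 19 Eph and ephrin genes, 12 of 23 Wnt and Fzd genes, 8 of 17 fibroblast growth factors and 11 of 25 Hox genes fell. Their share stood against 22.8% of all genes.

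Immediate early genes gave 1 rise and 10 falls among 19 (9 of the falls under all 4 scalings, and the rise was lost without Saline 4 or the 3 libraries that stand apart). Jun measured 115, 86.5, 112, 109 and 99.5 TPM in Saline and 45.6 to 80.2 TPM (median 62.4) in CDG_HDM. The sensitized lungs were all lower (log2 change -0.76 ± 0.148, limma adjusted p = 0.000188). Fos was not called (log2 change -0.44 ± 0.227, limma adjusted p = 0.139; adjusted p = 0.0278 without Saline 10). Saline ranged widely for some of them, with Nr4a1 at 8.77 to 46.3 TPM.

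Metabolic lists were mostly near the background or lower. For fatty acid oxidation, 15 of 22 tested members fell (10 under all 4 scalings) and the other 7 were not called, for the tricarboxylic acid cycle, 8 of 19 tested members fell (5 under all 4 scalings, 5 without any 1 of Saline 2, Saline 5, Saline 10, CDG_HDM 8, CDG_HDM 12 and CDG_HDM 14) and the other 11 were not called, for glycolysis, 2 of 18 tested members rose (lost without the 3 libraries that stand apart, 1 without any 1 of Saline 2, Saline 4, Saline 5, Saline 10, CDG_HDM 4, CDG_HDM 5, CDG_HDM 7, CDG_HDM 8, CDG_HDM 9 and CDG_HDM 10) and 1 fell (2 without Saline 4 or CDG_HDM 4 or without the 3 libraries that stand apart), and for cholesterol synthesis, 1 of 24 tested members rose and 3 fell (2 under all 4 scalings). Acadm, a dehydrogenase of medium chain fatty acids, measured 40.1, 33.8, 41.4, 38.0 and 42.0 TPM in Saline and 22.1 to 29.4 TPM (median 26.9) in CDG_HDM. The groups were close but separate (log2 change -0.58 ± 0.0996, limma adjusted p = 4.45e-05). The 13 genes of the mitochondrial genome all fell (8 under all 4 scalings). In the NRF2 list, 2 of 22 tested members rose (1 without any 1 of Saline 2, Saline 5, CDG_HDM 4, CDG_HDM 5, CDG_HDM 12, CDG_HDM 13 and CDG_HDM 14) and 12 fell (9 under all 4 scalings), with Hmox1, the haem oxygenase of macrophages, on the rising side (12.0 to 13.5 TPM in Saline and 18.8 to 40.8 in CDG_HDM; log2 change 0.97 ± 0.127, limma adjusted p = 6.91e-07) and Nqo1, the classical NRF2 target, on the falling side (3.88 to 5.80 TPM in Saline and 2.59 to 3.78 in CDG_HDM; log2 change -0.55 ± 0.0992, limma adjusted p = 7.69e-05). Against 22.8% of all genes, falls were called for 15 of 22 glutathione transferases, 10 of 18 aldehyde dehydrogenases and 13 of 30 cytochrome P450 genes of families 1 to 4. Gsta3 measured 164, 137, 143, 159 and 109 TPM in Saline and 26.03 to 82.5 TPM (median 48.9) in CDG_HDM. All sensitized values were lower (log2 change -1.59 ± 0.222, limma adjusted p = 1.82e-06). Club cells are a main site of several of these enzymes, and the club cell sum fell in the same libraries. The part of club cells in these falls was not tested.

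Heart muscle, fat cell and skeletal muscle genes fell or were not called. Of heart muscle genes, all 15 tested members fell, with a median of -1.98. Their sum was 729.7 TPM in Saline 8 and 1754 to 1994 TPM in the other 4 Saline lungs, against 145 to 534 TPM in CDG_HDM (median 351). Of fat cell genes, 9 of 11 tested members fell (8 under all 4 scalings) and the other 2 were not called, and of skeletal muscle genes, 4 of 8 tested members fell (3 under all 4 scalings) and the other 4 were not called. The respiratory chain genes Cox7a1 and Cox8b, muscle isoforms, fell with them (-1.93 ± 0.199 and -2.20 ± 0.232). Cpt1b and Slc2a4, also of muscle and fat, were at -0.89 ± 0.156 and -1.40 ± 0.176. Whether this RNA came from within the lung or from tissue beside it was not tested. The part of muscle and fat in the falls of metabolic, ion channel and calcium handling genes was not tested either.

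Many genes moved outside every list and family: 902 of 12154 such genes rose (7.42%) and 2768 fell (22.8%), against 13.8% and 22.9% of listed genes. By the rule of smallest adjusted p, the leading rises included Eaf2, an elongation factor partner of B lineage cells (3.20 to 4.41 TPM in Saline and 16.6 to 28.7 in CDG_HDM; log2 change 2.20 ± 0.144, limma adjusted p = 2.22e-12), and Lax1, an adaptor that restrains lymphocyte signalling (6.27 to 11.6 TPM in Saline and 37.9 to 76.0 in CDG_HDM; log2 change 2.36 ± 0.156, limma adjusted p = 2.32e-12). They also included Cd86, the costimulatory ligand of CD28 (3.23 to 4.71 TPM in Saline and 10.8 to 16.005 in CDG_HDM; log2 change 1.55 ± 0.113, limma adjusted p = 1.64e-11), and Mpeg1, the pore former of macrophages (41.9 to 52.0 TPM in Saline and 104 to 187 in CDG_HDM; log2 change 1.63 ± 0.125, limma adjusted p = 4.46e-11). Podnl1, a leucine-rich matrix protein, measured 3.43, 2.28, 2.99, 4.59 and 3.79 TPM in Saline and 14.3 to 27.1 TPM (median 18.8) in CDG_HDM. Cpxm1, a carboxypeptidase-like secreted protein, measured 11.4, 12.7, 8.24, 8.61 and 10.8 TPM in Saline and 21.9 to 32.7 TPM (median 31.6) in CDG_HDM. Both were higher in all sensitized lungs (2.20 ± 0.158 and 1.42 ± 0.116). The 10 leading falls included the muscle genes Hrc, Mylk3, Ckmt2 and Popdc2, with Pon1, the paraoxonase, (23.4 to 29.0 TPM in Saline and 5.14 to 11.9 in CDG_HDM; log2 change -1.64 ± 0.175, limma adjusted p = 2.18e-08) and Crispld2, a secreted mesenchymal protein, (31.6 to 42.9 TPM in Saline and 6.51 to 15.1 in CDG_HDM; log2 change -1.66 ± 0.183, limma adjusted p = 4.08e-08) among the others.

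Some large families held few calls. Of 81 cytosolic ribosomal protein genes 4 rose (1 fell without CDG_HDM 13; 1 rose without CDG_HDM 4, 2 without any 1 of Saline 8, Saline 10, CDG_HDM 7 and CDG_HDM 14, and by limma 0 without Saline 2 or Saline 5) and 77 were not called, of 75 mitochondrial ribosomal protein genes 4 fell (7 without CDG_HDM 3 or CDG_HDM 9), and of 43 proteasome genes 7 were called in either direction. Olfactory receptor genes gave 10 rises and 50 falls among 696, but 323 falls without Saline 4 and 191 without the 3 libraries that stand apart, and 29, 24, 23, 25 and 33 falls without Saline 2, Saline 5, Saline 8, Saline 10 and CDG_HDM 4. The rises became 6 without Saline 4, CDG_HDM 9 or the 3 libraries. Gene length was related to direction. Of the 10% of genes with the shortest exon length, 13.2% rose and 20.6% fell (14.0% under all 4 scalings). Of the longest 10%, 5.92% rose and 31.3% fell (22.2% under all 4 scalings). Of the 10% of genes most abundant in Saline, 8.31% rose and 33.8% fell (8.26% and 26.8% under all 4 scalings). The Saline values also enter the change, so choosing genes by them by itself favours falls. By chromosome, 13 and 17 had the highest shares of rises, at 14.7% and 12.3%. Without the replication histones and the presentation lists, which cluster there, these became 8.83% and 10.2%.

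Circular RNA, formed when a downstream splice donor joins an upstream acceptor, changed less detectably. Circular values summed to 64547 ± 15060 TPM in Saline and 49499.9 ± 13262 in CDG_HDM, a difference that did not pass the threshold (exact permutation test, two-sided p = 0.0669, adjusted over 3 totals 0.1004). Of 2271 circular genes tested, 8 were higher (0.352%) and 9 lower (0.396%) by limma, and 240 had an unadjusted p under 0.05. Of those 17, 10 are listed at 0 in some library, and leaving out single libraries gave between 1 call (without Saline 5) and 16 calls, with 3 without all of the libraries that stand apart. Plcg2, whose linear product is a phospholipase of B cells and macrophages, is listed at 0 in 4 Saline libraries and at 19.9 TPM in Saline 10, against 20.8 to 30.8 in CDG_HDM. Its linear RNA rose (log2 change 0.96 ± 0.132, limma adjusted p = 1.52e-06). Rapgef4 went the other way, at 2.80 to 4.36 TPM in Saline and listed at 0 in 9 of 10 CDG_HDM libraries, and its linear RNA fell (log2 change -0.84 ± 0.149, limma adjusted p = 5.98e-05). Sftpc and Limch1 had the highest mean circular values, and both are listed at 0 in some libraries.

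Genes above 0 in all 27 libraries allow a fold change. Of these 340, 9 were higher (2.65%) and 33 lower (9.71%) by limma, and for 33 of the 42 the linear RNA was called in the same direction, for the other 9 it was not called. Circular Dock4 measured 83.7, 99.2, 72.9, 64.2 and 63.6 TPM in Saline and 22.9 to 62.7 TPM (median 38.7) in CDG_HDM. No sensitized lung reached the lowest Saline value (log2 change -0.95 ± 0.176, limma adjusted p = 0.00439). Linear Dock4 fell by less (-0.55 ± 0.104). Circular Gsap measured 139, 87.8, 109, 145 and 153 TPM in Saline and 162 to 240 TPM in CDG_HDM, again without overlap, and its linear RNA rose too (0.40 ± 0.107). The median change of the 33 lower circular RNAs was -0.80 against -0.46 for their linear RNA. The median change of the 9 higher ones was 0.77 against 0.40. These 42 genes were chosen by their circular change, which by itself favours a larger circular than linear change. Over all 340 genes the median changes were -0.23 for circular and -0.13 for linear RNA. The circular to linear ratio itself was called for 2 of 2266 genes, both higher (0.0883%), with 187 at an unadjusted p under 0.05, and for 0 of these 340 by limma, with 45 at an unadjusted p under 0.05. Across the 340 genes, which share libraries and are not independent, the circular and linear changes had r = 0.54.

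**Figure D5:**
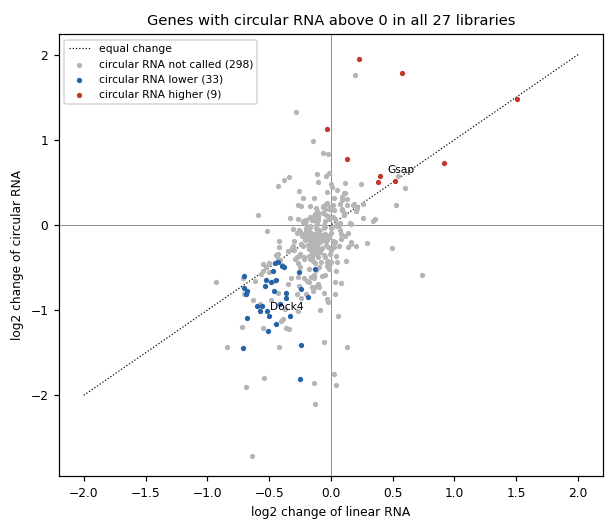
Log2 change of linear RNA (x axis) and circular RNA (y axis), CDG_HDM minus Saline, for the 340 genes with circular RNA above 0 in all 27 libraries. Points are genes, coloured by the call of the circular RNA (9 higher, 33 lower), and the dotted line marks equal change. Most called points lie farther from 0 on the circular axis than on the linear axis. Calls were made on the circular change alone, which by itself favours this.

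Sensitized lungs also differed among themselves. Over the 95 cell and pathway lists, CDG_HDM 12 had the lowest summed TPM of the 10 sensitized libraries in 46 and the highest in 0, and it was the library with the most TPM outside the tables. CDG_HDM 4 had the highest sum in 23 lists and the lowest in 18. It was highest for pan T cells, mature B cells and replication histones, and lowest for club cells, ciliated cells, general capillary endothelium, smooth muscle and red cells. CDG_HDM 9 had the highest sum in 23 lists and the lowest in 1. Circadian clock genes gave 5 rises (0.67 to 1.75) and 7 falls (-1.25 to -0.46). Their sums were 204 to 250 TPM in CDG_HDM 12, 13 and 14, 304 to 435 in the other sensitized libraries and 245 to 323 in Saline. Heat shock sums were 1114 to 1910 TPM in CDG_HDM 3, 4, 12, 13 and 14 and 2721 to 3412 in CDG_HDM 5, 7, 8, 9 and 10. In Saline they were 1603 to 3165 TPM. The cause of these divisions was not tested.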

How the data were processed

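Linear and circular RNA were measured in 27 libraries. The values are TPM as deposited by the authors, and the submitters' processing notes name CASAVA 1.9 and the mouse build mm10. The aligner, the quantification tool and the annotation were not given in the sources used here. TPM keeps no read depth, so no counting intervals are given. Per the labels' protocols, RNA integrity numbers ran from 6.9 to 8.6.

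The test was limma 3.58.1 in R 4.3.3 on log2(TPM + 1), with its trend option, for genes at 1 TPM or more in at least 5 libraries. A gene under 1 TPM in Saline could pass through the other groups, while one under it elsewhere needed all 5 Saline libraries. This favours rises among low genes, and Nuggc, Il21 and Gp2 passed in this way. All 27 libraries shared 1 estimate of spread, the contrast was CDG_HDM minus Saline, and p-values were adjusted by the Benjamini-Hochberg method over all genes tested. Fold changes on this scale understate those of low genes. Circular values had 3.48e-06 added, and a gene was tested if above 0 in at least 5 libraries. Library totals were compared by exact permutation. On simulated data the linear test recovered 18%, 88%, 98% and 100% of genes changed by 1.25, 1.5, 2 and 4-fold, with 5 false calls among 157. The simulation drew each gene independently, changed 50 genes per fold and held no library effects or shift of scale. It therefore does not give the share of false calls in the real data.

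The 54 cell lists, 41 pathway lists and 76 families were chosen with earlier results of these data known, and of 1399 listed symbols 1393 were found, 4 of them by a synonym. Genes named are each list's defining genes and up to 3 called members per direction with the largest moderated t (2 in a family). Outside the lists they are the 10 per direction with the smallest adjusted p, no overlap and a group mean of at least 10 TPM, and for circular RNA the 5 with the smallest p and the 5 with the highest mean. The text gives a selection of these, made after their values were seen, and Creld2, Hist1h4h and genes named to spell out a short count fall outside the rule. Alternatives were 3 other scalings, another pseudocount and filter, the 15 libraries alone, a replicate block and leaving out each library. Leaving out the 3 libraries that stand apart was added after seeing the data. Immunoglobulin and T cell receptor genes were not analysed here.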

Additional observations from a re-analysis of the deposited data

Results flagged for a closer look

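A library was singled out where its gap to the nearest library of its group, divided by the group's range, exceeded Dixon's critical value at the 95% level. This gave 20 values in 316 group checks, and chance flags about 1 group in 20. No cause was tested for any of them.

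CDG_HDM 12 had a linear sum of 628177 TPM, against 732362 to 798457 in the other sensitized lungs, and 32.8% of its TPM lay outside the tables. Saline 8 had a heart muscle sum of 729.7 TPM, against 1754 to 1994 in the other Saline lungs. Saline 4 was low for Bmpr2 (99.0 TPM, others 134.9 to 139.9) and Calcrl (275 TPM, others 378 to 416), and high for Col1a1 (74.5 TPM, others 39.2 to 45.9).

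CDG_HDM 4 gave 7 of the 20 values, each the highest of its group. They were 7.86 TPM for F13a1, 109 TPM for Hist1h1b, 1.97 TPM for Il21, 76.0 TPM for Lax1, 5.99 TPM for Lta, 40.7 TPM for linear Plcg2 and 9.81 TPM for Rrm2. Each of the other libraries gave at most 3.

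Hspa1a was highest in Saline 5 (73.9 TPM) and in CDG_HDM 5 (78.5 TPM). Clca1 measured 35.8 TPM in CDG_HDM 13, against 2.41 to 10.9 in the other sensitized lungs. Tnc measured 11.6 TPM in Saline 10. Wnt2 measured 20.1 TPM in Saline 8 and 13.7 TPM in CDG_HDM 3, which also had the lowest Xbp1 of the sensitized lungs, at 139 TPM.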

How the results depend on the processing

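A set of 129 of the genes named above was followed under the 25 alternatives, and 97 of them were called. Of these, 91 kept their direction and call under each alternative that could test them. None of the 129 reversed a call. The set left out some named genes, among them Il2rb, Nkg7, Hist1h4b and Hrc. The naming rules favour strong calls, so these counts do not describe the linear calls as a whole. Linear genes called higher numbered 4567 at a common sum, 3903 under median-of-ratios scaling and 3615 under quantile normalization, against 1631 as deposited. Leaving out single libraries gave 4546 to 7385 linear calls, 1445 to 1716 higher and 2995 to 5940 lower.

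Saline and CDG_HDM share 4 replicate numbers. Deviations of same-numbered samples correlated at 0.09, 0.27, -0.04 and -0.17, and 2 of the 4 correlated best with their own number. With only 4 such pairs, this cannot decide whether same-numbered samples shared anything beyond the number. With the replicate block, 2958 linear genes were called, 888 higher and 2070 lower. The block compares libraries within a number, so only the 4 shared numbers inform the difference. Counts with the block therefore rest on fewer libraries than the other alternatives. By limma the block left 0 circular calls (0 higher, 0 lower; 166 at an unadjusted p under 0.05) and 0 ratio calls (122).

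Counts of circular calls moved under these alternatives. In place of 17 calls (8 higher, 9 lower), genes above 0 in all libraries gave 42 (33 lower), above 0 in any library 7 (2 and 5), and pseudocount 1 gave 5 higher and 16 lower. Pseudocount 1 with values above 0 in all libraries, added later, gave 50 (41 lower). Dividing by the linear sum gave 4 lower, and by limma the 8 genes called higher above all stayed called higher. Leaving out the 3 libraries that stand apart gave 3 (2 and 1). Leaving out single libraries gave 1 to 16 calls, 1 to 7 higher and 0 to 10 lower. For the ratio, in place of 2 calls, pseudocount 1 gave 5 (3 lower), above 0 in any library 6 (4 lower), the 15 libraries alone 7 (4 lower), above 0 in all libraries 0 (0 higher; 45 at an unadjusted p under 0.05), and 1 was lower without the 3 libraries. Leaving out single libraries gave 1 to 4 ratio calls, 1 to 3 higher and 0 to 2 lower. The difference in summed circular TPM, CDG_HDM minus Saline, ran from -19751.3 to -9205.8 with single libraries left out and passed the threshold without Saline 8 (-19751.3) and without CDG_HDM 8 (-18105.2). The cause of these shifts was not tested. On circular data simulated in the same way as the linear data, the test recovered 12% of 16-fold changes and 2% of 4-fold changes. The simulation drew normal values on the log2 scale, where a 0 lies far below most other values. It therefore does not resemble genes listed at 0 in some libraries. Nor do these shares give what the test could detect in genes above 0 in all libraries.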
